A study of Danio rerio with 96 samples.

Results

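The amplicon at 41.1 Mb of zebrafish chromosome 6 was a stretch of 223 bp on the plus strand of build GRCz10 that was amplified from bisulfite-converted DNA and sequenced. Its members were the CpG cytosines of that stretch that reached 30 reads in 48 or more of the 96 libraries. They numbered 4 of the 50 CpGs tested in the 8 amplicons of the series. They are called CpG 1 (chromosome 6, 1-based position 41099291), CpG 2 (41099385), CpG 3 (41099420) and CpG 4 (41099447) here. They lay 94, 35 and 27 bp apart, and the stretch ran from 44 bp before CpG 1 to 22 bp after CpG 4. Without an annotation of GRCz10 at hand, the gene at this locus and the place of the CpGs within it are not given.

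Each library came from the dissected head of a larva at 5 days post-fertilisation (dpf). GR mutant larvae, which carried a mutant glucocorticoid receptor (GR), were kept in 100 µM betamethasone (24 libraries) or in 0.2% ethanol as control (24 libraries). Wild-type larvae were likewise kept in 100 µM betamethasone (24 libraries) or in 0.2% ethanol (24 libraries). The labels give neither the mutant allele nor the start or length of the exposure, and a whole head holds many cell types. They also give no ethanol level for the betamethasone groups, so whether these larvae had the same vehicle is not known.

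DNA methylation in vertebrates sits mostly on the cytosine of CpG dinucleotides and is copied to the new strand at each cell division by a maintenance methyltransferase. Most CpGs of the zebrafish genome are highly methylated, while CpGs in active promoters and enhancers are often not. Bisulfite turns unmethylated cytosines into a base read as T, whereas methylated cytosines are still read as C. GR is the nuclear receptor that binds cortisol and synthetic glucocorticoids such as betamethasone, and then regulates target genes through its binding sites in DNA. The design asked whether betamethasone went with a methylation difference, and whether this differed between genotypes.

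Of the 96 libraries, 94 had values at all 4 CpGs. Wild-type betamethasone library 2 had 0 reads in the stretch, and GR mutant betamethasone library 3 had at most 4. At CpG 2 the median depth was 7929 reads, with a range of 153 to 8032, and 61 libraries had at least 7000 reads. Depth was uneven between groups. The median at CpG 2 was 7931 reads in GR mutant betamethasone, 7927 in GR mutant control, 7999 in wild-type betamethasone and only 3312.5 in wild-type control libraries. Fewer than 1000 reads were found in 3 GR mutant betamethasone, 0 GR mutant control, 2 wild-type betamethasone and as many as 7 wild-type control libraries. The counting error of a level, at a median of 0.325 percentage points at CpG 2 and 0.396 at CpG 4, was far smaller than the spread between larvae. Reads are copies made by PCR from 100 pg of DNA, so counting error understates the error of a level.

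Libraries with neighbouring numbers in a group often resembled each other at this amplicon. Their 4 levels matched within sampling noise (a mean chi-square under 4 over the 4 CpGs, each with 500 reads or more) in 16 of 76 comparisons (21.1%), against 16 of 855 other pairs of a group (1.87%) and 16 of 2897 pairs across groups (0.552%). The labels do not say whether neighbouring numbers shared a clutch, a dish or a plate. A further 4 libraries stood apart from their labels, since at 2 or more of the other 7 amplicons their matching closest profiles all lay in another group. These were GR mutant betamethasone library 19, GR mutant control library 23, wild-type betamethasone library 23 and wild-type control library 20. At the amplicon described here, GR mutant control library 23 had the lowest level of its group at each of the 4 CpGs, with 69.4% at CpG 4. Wild-type betamethasone library 23 had the highest level of its group at each of them, with 93.2% at CpG 4. Amplicon levels without these 4 libraries are given with each comparison, and at single CpGs their removal changed no call in the 5 comparisons. This removal was added after seeing the data and takes out libraries that resemble another group. It can widen group differences, so it is no check of their stability. Differences with matching libraries of a group averaged and counted once are given beside it.

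**Figure D1:**
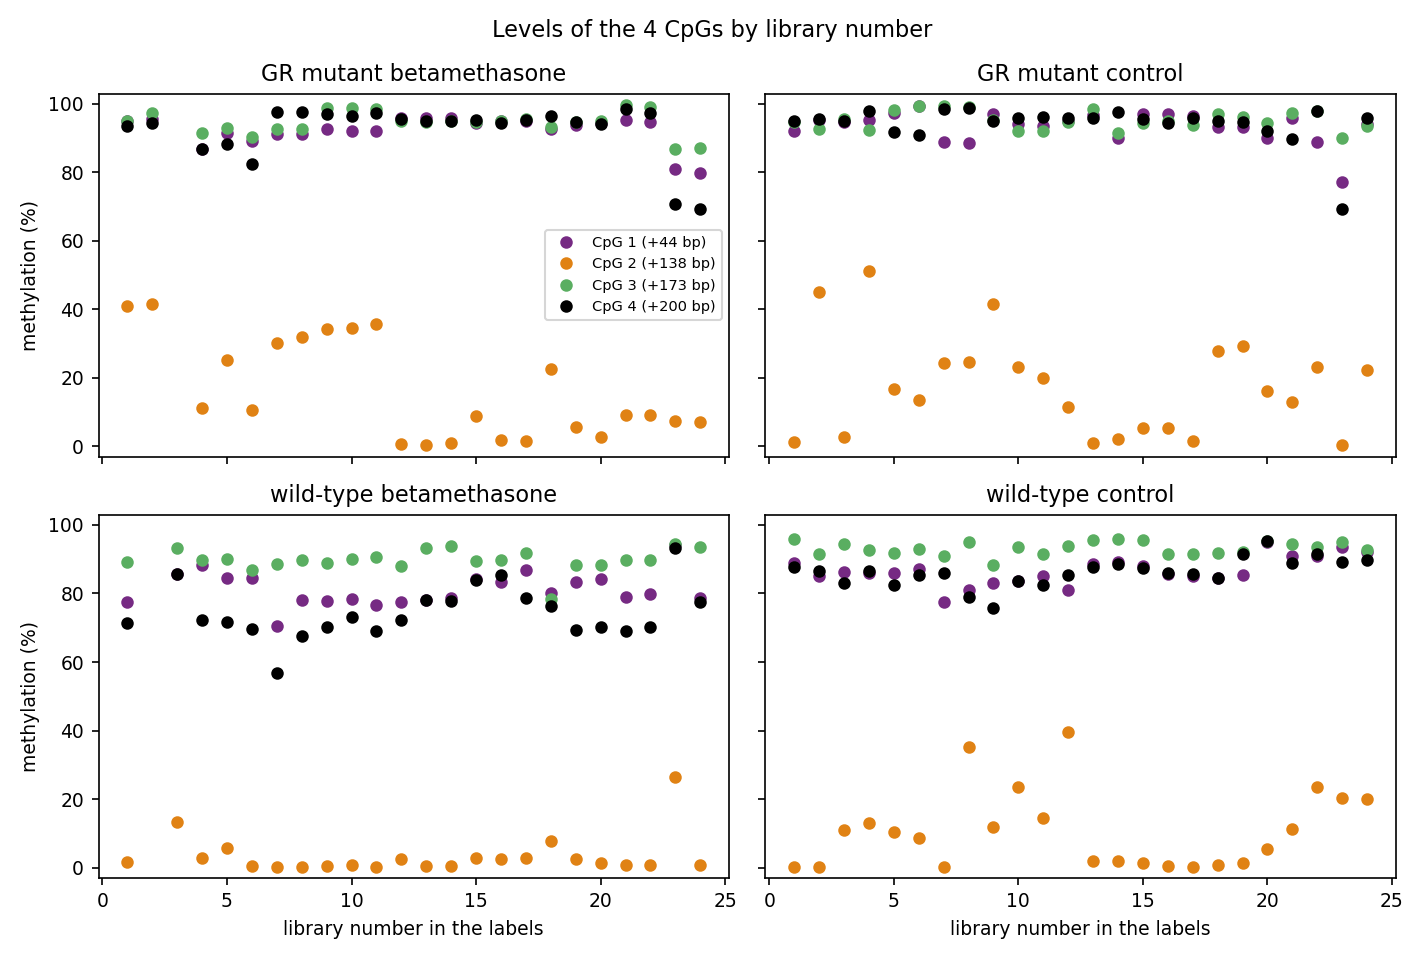
Methylation level (%) of the 4 CpGs in each library, by the library number in the labels, in 1 panel per group. CpG 2 stays below the other CpGs in all 94 libraries, and runs of neighbouring numbers often have like levels.

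Within every larva the same CpG was the lowest. CpG 2 had a mean level of 12.0% ± 13.2 (SD, n = 94) over all larvae, from 0.138% to 51.2%, and was the lowest of the 4 CpGs in 94 of 94 larvae. CpG 1, 94 bp before it, was at 88.4% ± 6.54 (SD, n = 94). CpG 3, 35 bp after it, was at 93.2% ± 3.51 (SD, n = 94). CpG 4 was at 86.8% ± 10.1 (SD, n = 94). The mean of CpGs 1, 3 and 4 exceeded CpG 2 by 43.9 to 95.9 percentage points in single larvae. A sharp step in methylation was thus measured over a short distance, from counts per cytosine and not within single reads. Over all larvae CpG 2 had the greatest SD of the 4 CpGs, but in wild-type betamethasone larvae the SD was 7.68 at CpG 4 and 5.85 at CpG 2.

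Among the 3 high CpGs, CpG 3 led in most wild-type larvae, which was not tested. It was the highest in 13 of 23 GR mutant betamethasone, 12 of 24 GR mutant control, 22 of 23 wild-type betamethasone and 24 of 24 wild-type control larvae. The median range over the 3 high CpGs within a larva was 4.50 percentage points in GR mutant betamethasone, 3.75 in GR mutant control, 17.1 in wild-type betamethasone and 7.44 in wild-type control larvae. In GR mutants the 3 CpGs thus lay close together, and in wild-type betamethasone larvae they were widest apart.

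The 35 cytosines outside CpGs gave the background of the assay. The 25 of them from 41099276 to 41099444 were read as methylated at mean levels of 0.694% to 2.83%, with a median of 1.26%. The highest mean was at 41099276, a CHG cytosine (H stands for A, C or T), with a median of 1.48%. It reached 15.6% in GR mutant betamethasone, 14.7% in GR mutant control, 6.65% in wild-type betamethasone and 11.0% in wild-type control larvae. Such reads can be unconverted or truly methylated cytosines, and the files do not separate these. The 4 outermost cytosines up to 41099265 and the 6 outermost from 41099450 on had means of only 0.00287% to 0.0246%. Both outer stretches were set by their near-zero means, so lying far under the inner cytosines follows from how they were chosen. Per the labels, the primers held 25 to 30 bp of target sequence, and bases copied from a primer do not report on the larva's DNA.

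CpG 4 is the member that lies within 30 bp of an end of the amplicon. It is 22 bp from the last cytosine and 3 bp before the first cytosine of the near-zero outer stretch. Its own level was high and varied between larvae. The non-CpG cytosines at 41099443 and 41099444, next to it, had means of 1.28% and 1.27% and were for that reason counted among the inner cytosines. CpG 1 is 44 bp from the first cytosine and 26 bp after the last near-zero one on that side.

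**Figure D2:**
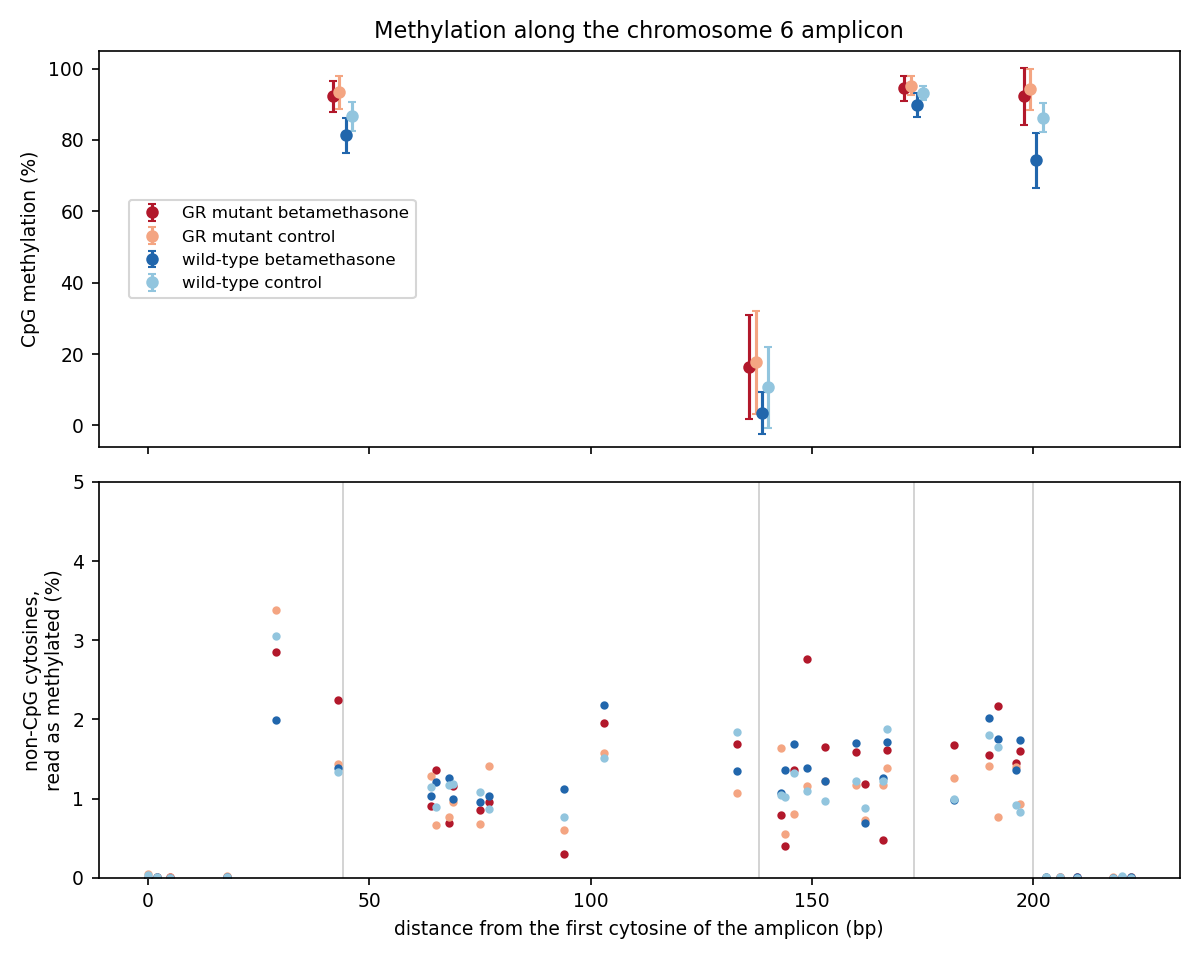
Top, mean methylation (%) of the 4 CpGs by group against the distance from the first cytosine of the amplicon (bp), with the SD over 23 or 24 larvae as bars and groups shifted sideways for clarity. Bottom, mean percentage of reads called methylated at each of the 35 non-CpG cytosines by group, with grey lines at the CpGs: the outer cytosines lie near 0 and the inner ones under 4%, while CpG 2 lies far under its 3 neighbours.

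Betamethasone went with lower methylation of this amplicon in wild-type larvae. The level, methylated reads over all reads of the 4 CpGs, had a lowest, median and highest value of 54.0%, 60.9% and 77.1% in wild-type betamethasone larvae, against 63.7%, 68.7% and 74.95% in wild-type controls. The groups overlapped, but 18 of 23 betamethasone larvae lay below the lowest control. The mean was 62.2% ± 4.42 (SD, n = 23) in wild-type betamethasone larvae and 69.3% ± 3.32 (SD, n = 24) in wild-type controls. The difference was -7.07 percentage points (SE 1.14). It passed the beta-binomial likelihood ratio test, a test of read counts that allows for spread between larvae, adjusted by Benjamini-Hochberg over the 8 amplicons (adjusted p = 1.09e-06), and the level was below the control median in 21 of 23 larvae. The same test called 37.5% of the 8 amplicons. Without the libraries that stood apart the difference was -7.60 (adjusted p = 1.64e-09). The main test took every library as independent, although some of a group had matching profiles. With matching libraries counted once the difference was -6.55 (beta-binomial adjusted p = 0.00076). Then 12 of 14 wild-type betamethasone values lay below the median of 18 control values.

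By CpG, the difference in wild type was greatest at CpG 4. Its lowest, median and highest levels were 56.9%, 72.2% and 93.2% in wild-type betamethasone larvae, against 75.6%, 86.2% and 95.2% in wild-type controls. In 14 of 23 betamethasone larvae CpG 4 was below the lowest control, and in 19 of 23, against 2 of 24 controls, it was below 80%. The mean was 74.3% ± 7.68 (SD, n = 23) in wild-type betamethasone larvae and 86.3% ± 4.14 (SD, n = 24) in controls, a difference of -12.0 (SE 1.81, beta-binomial adjusted p = 3.73e-06 over the 50 CpGs), below the control median in 22 of 23 larvae.

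CpG 1 ranged from 70.4% to 94.1% with a median of 79.9% in wild-type betamethasone larvae, against 77.7% to 94.9% with a median of 85.9% in controls. The ranges overlapped over most of their width. Its mean was 81.3% ± 4.96 (SD, n = 23) in wild-type betamethasone larvae and 86.7% ± 4.07 (SD, n = 24) in controls (difference -5.36, SE 1.33, beta-binomial adjusted p = 0.00178), lower in 20 of 23. CpG 1 no longer passed when libraries of a group with matching profiles were counted once (difference -3.39, adjusted p = 0.325).

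CpG 3 ranged from 78.3% to 94.5% with a median of 89.8% in wild-type betamethasone larvae, against 88.2% to 95.9% with a median of 93.3% in controls. Its mean was 89.8% ± 3.25 (SD, n = 23) in wild-type betamethasone larvae and 93.2% ± 1.93 (SD, n = 24) in controls (difference -3.43, SE 0.783, beta-binomial adjusted p = 0.000335), lower in 19 of 23. Hence 3 of the 4 CpGs fell, against 16.0% of the 50 CpGs called lower in this comparison and 22.0% called in either direction. These CpGs share reads and larvae, so they are not independent calls.

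CpG 2 had a lowest, median and highest level of 0.138%, 1.46% and 26.4% in wild-type betamethasone larvae, against 0.164%, 9.48% and 39.6% in wild-type controls. Most of the betamethasone larvae were near 0, and the controls were spread from near 0 upward. The mean was 3.39% ± 5.85 (SD, n = 23) in wild-type betamethasone larvae and 10.7% ± 11.4 (SD, n = 24) in controls, a difference of -7.30 (SE 2.62) that did not pass the beta-binomial test (adjusted p = 0.201), although 21 of 23 larvae lay below the control median. It did pass by the permutation test of the same means (adjusted p = 0.0289), by the quasi-binomial test weighted by reads (difference -6.31, adjusted p = 0.0238) and on levels corrected for the larva's non-CpG level (difference -7.55, adjusted p = 0.0230). Both the call and the size depended on the test and on the libraries kept. Without libraries over 2% non-CpG methylation, taken over the non-CpG cytosines of all 8 amplicons, the difference was only -1.77 (beta-binomial adjusted p = 0.906), with 11 of 21 betamethasone larvae below the median of the 14 remaining controls. Where 1000 reads were required, the difference was -7.36 (beta-binomial adjusted p = 0.575), but the medians were 0.875% in wild-type betamethasone larvae and 1.97% in wild-type controls, and the level was under the median of the 17 controls in 12 of 21 betamethasone larvae.

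Averaging the libraries in runs of 4 neighbouring numbers, to 6 values per group, left the differences in wild type close to those over larvae. They were -5.25 at CpG 1 (adjusted p = 0.0866), -3.39 at CpG 3 (adjusted p = 0.0541) and -11.9 at CpG 4 (adjusted p = 0.0541) by the exact permutation test over the 50 CpGs. With 6 values per group the p at CpG 4, 0.00216, was the smallest this exact test can give, so its missing call says little about its stability. By the same exact test CpG 1 (unadjusted p = 0.0173) and CpG 3 (unadjusted p = 0.00433) did not reach that smallest p. Between the genotypes in controls this test did call CpG 1 (adjusted p = 0.0241). The amplicon level still passed (difference -6.99, exact permutation test, adjusted p = 0.0173, n = 6 per group).

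**Figure D3:**
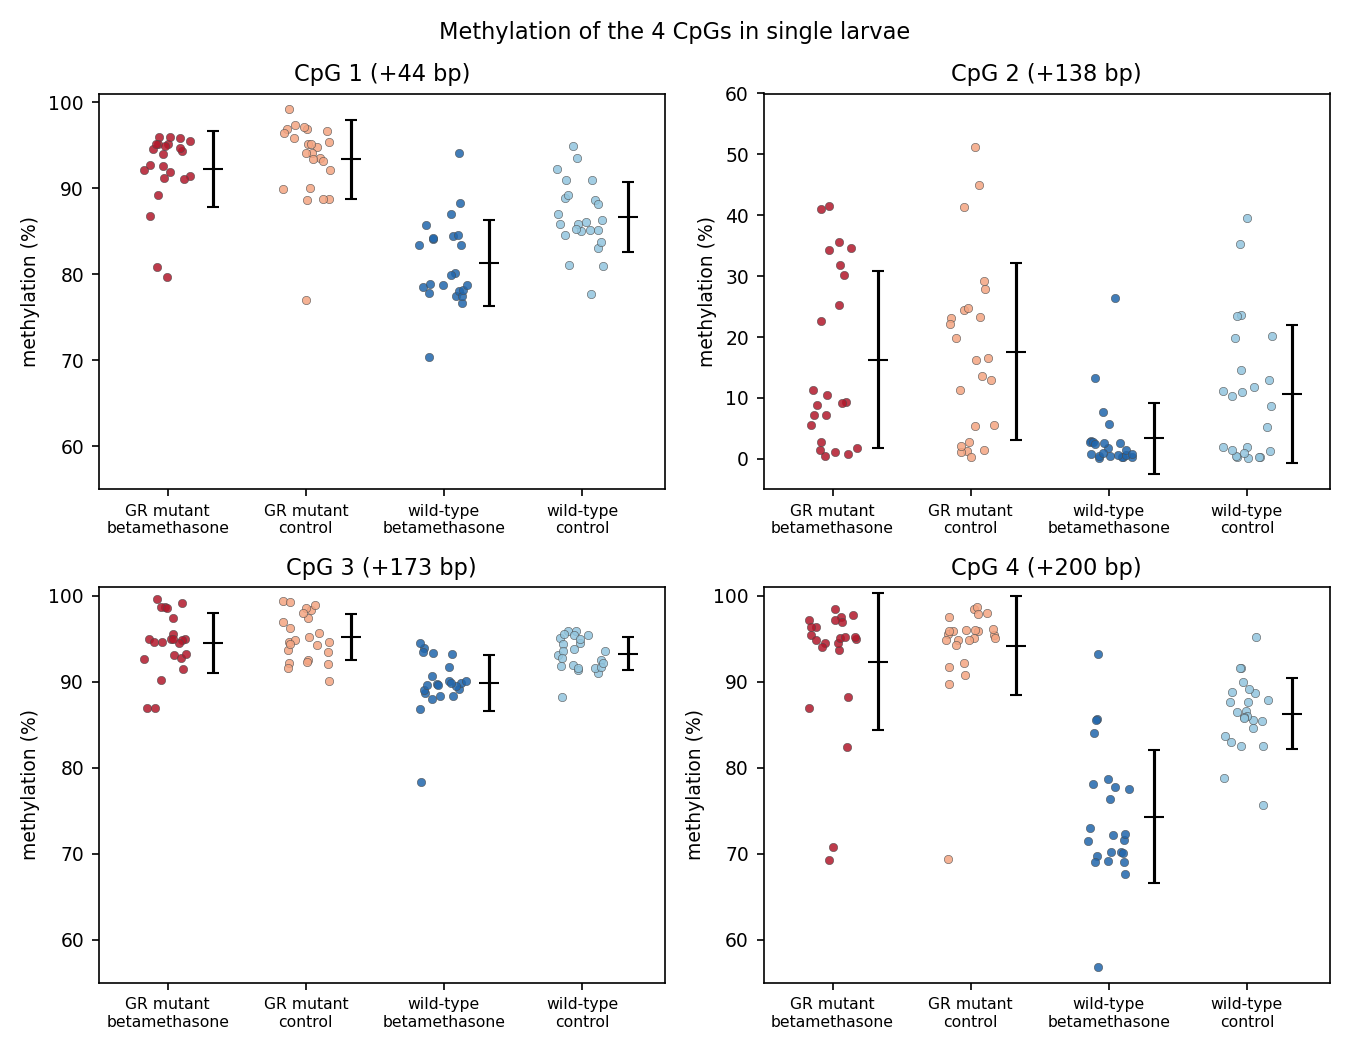
Methylation level (%) of each CpG in single larvae (points) by group, with the group mean and SD as a bar to the right of the points; the panel of CpG 2 has its own axis range, and the axes of CpGs 1, 3 and 4 start at 55%. Wild-type betamethasone larvae lie lowest at CpG 4, with a mean of 74.3%, and cluster near 0 at CpG 2.

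In GR mutant larvae none of these differences passed. The amplicon level had a lowest, median and highest value of 60.8%, 73.2% and 82.2% in GR mutant betamethasone larvae, against 59.2%, 75.6% and 84.2% in GR mutant controls. The mean was 73.8% ± 5.71 (SD, n = 23) in GR mutant betamethasone larvae and 75.1% ± 4.91 (SD, n = 24) in GR mutant controls, a difference of -1.27 (SE 1.56, 95% interval -4.32 to 1.78, beta-binomial adjusted p = 0.652). The beta-binomial test called 0.00% of the 8 amplicons in this comparison, and 12.5% had an unadjusted p below 0.05. Without the libraries that stood apart the difference was -1.89 (adjusted p = 0.428). With matching libraries counted once it was -0.608 (beta-binomial adjusted p = 0.873).

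At CpG 4 the levels were 69.3%, 95.1% and 98.5% (lowest, median, highest) in GR mutant betamethasone larvae, against 69.4%, 95.5% and 98.7% in GR mutant controls. Both groups had nearly all larvae above 80%, with 2 below it in the betamethasone and 1 in the control group. The difference was -1.89 (SE 2.03, 95% interval -5.87 to 2.10, beta-binomial adjusted p = 0.689). The 2 low betamethasone larvae were libraries 23 and 24, at 70.8% and 69.3%, and the low control was library 23.

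The other CpGs of the mutants differed by less than their spread. CpG 1 was at 92.2% ± 4.42 (SD, n = 23) in GR mutant betamethasone larvae and 93.3% ± 4.60 (SD, n = 24) in GR mutant controls (beta-binomial adjusted p = 0.528). CpG 3 was at 94.5% ± 3.45 (SD, n = 23) in betamethasone larvae and 95.2% ± 2.71 (SD, n = 24) in controls (adjusted p = 0.813 by the same beta-binomial test). CpG 2 was at 16.3% ± 14.6 (SD, n = 23) in betamethasone larvae and 17.6% ± 14.5 (SD, n = 24) in controls (difference -1.34, 95% interval -9.64 to 6.96, adjusted p = 0.831). That is 0 of 4 CpGs called, with 0 by the permutation and quasi-binomial tests as well, where the beta-binomial test called 2.00% of the 50 CpGs and 16.0% had an unadjusted p below 0.05. None of the 4 CpGs had an unadjusted p below 0.05. The interval of CpG 2 is wide and includes the size of the difference measured in wild type.

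**Figure D4:**
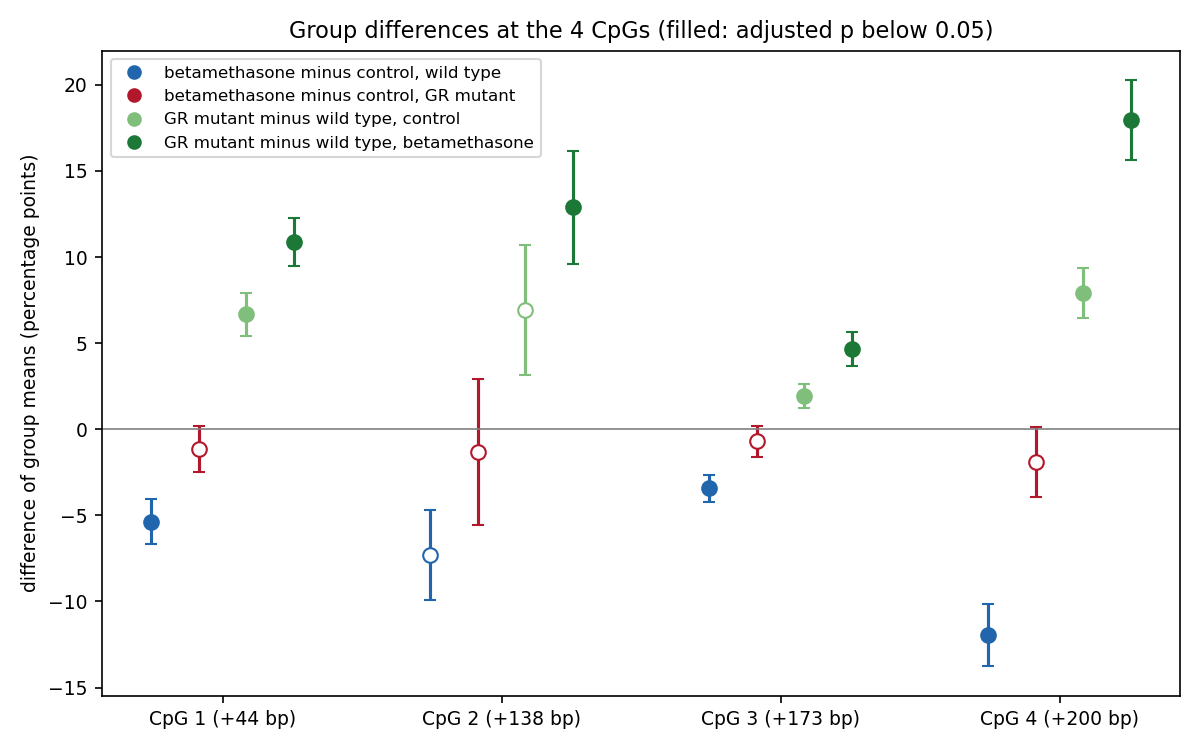
Difference of group means (percentage points) at each CpG in 4 comparisons, with the standard error as bars; filled points had an adjusted p below 0.05 by the beta-binomial test over the 50 CpGs. The wild-type betamethasone differences are all negative, down to -12.0 at CpG 4, the mutant betamethasone differences lie within 2 points of 0, and the genotype differences are all positive.

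The betamethasone difference itself differed between genotypes at the level of the amplicon. It was -1.27 percentage points in GR mutants and -7.07 in wild type, so that the mutant difference was 5.80 points higher (SE 1.93, 95% interval 2.02 to 9.59, n = 94). The interaction was tested on the logit scale by the beta-binomial test and passed (adjusted p = 0.0205), as did 37.5% of the 8 amplicons. Without the libraries that stood apart it was 5.71 (adjusted p = 0.0273). This call was the least stable of the amplicon. It was lost without CpG 4 (4.37, adjusted p = 0.0811), with matching libraries counted once (5.95, adjusted p = 0.0776), and once libraries over 2% non-CpG methylation over all amplicons were left out (3.45, adjusted p = 0.290).

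No single CpG passed the interaction test, against 14.0% of the 50 CpGs. The nearest was CpG 4, with differences of -1.89 in GR mutants and -12.0 in wild type, 10.1 points apart (SE 2.72, unadjusted p = 0.0177, beta-binomial adjusted p = 0.0886). In percentage points, by the permutation test, CpG 4 passed (adjusted p = 0.00775). At CpG 1 the mutant difference was 4.21 points higher (SE 1.87, adjusted p = 0.565), at CpG 3 it was 2.73 higher (SE 1.20, adjusted p = 0.303), and at CpG 2 it was 5.96 higher (SE 4.98, adjusted p = 0.506).

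Without betamethasone, GR mutants had more methylation at this amplicon than wild-type larvae. The level was 59.2%, 75.6% and 84.2% (lowest, median, highest) in GR mutant controls, against 63.7%, 68.7% and 74.95% in wild-type controls, and 13 of 24 mutants lay above the highest wild-type larva. The mean was 75.1% ± 4.91 in GR mutant controls and 69.3% ± 3.32 in wild-type controls (SD, n = 24 each). The beta-binomial test called this difference of 5.82 (SE 1.21, adjusted p = 3.37e-05), above the wild-type median in 23 of 24. In this comparison 37.5% of the 8 amplicons were called. Without the libraries that stood apart the difference was 6.66 (adjusted p = 3.93e-07). With matching libraries counted once it was 5.32 (beta-binomial adjusted p = 0.00189). This comparison shares its control larvae with those of betamethasone, so the comparisons are not independent.

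At CpG 4 the control groups had lowest, median and highest levels of 69.4%, 95.5% and 98.7% in GR mutants, against 75.6%, 86.2% and 95.2% in wild type. The mutants were packed near the top of the scale, with 13 of 24 above the highest wild-type control. The mean difference was 7.90 (SE 1.45, beta-binomial adjusted p = 3.43e-07), higher in 23 of 24.

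CpG 1 was at 93.3% ± 4.60 in GR mutant controls and 86.7% ± 4.07 in wild-type controls (SD, n = 24 each), higher by 6.67 (SE 1.25, beta-binomial adjusted p = 7.50e-06) and in 23 of 24. CpG 3 was at 95.2% ± 2.71 in GR mutant controls and 93.2% ± 1.93 in wild-type controls (SD, n = 24 each), higher by 1.94 (SE 0.679, adjusted p = 0.00432) and in 18 of 24. CpG 2 was at 17.6% ± 14.5 in GR mutant controls and 10.7% ± 11.4 in wild-type controls (SD, n = 24 each), a difference of 6.93 (SE 3.75, 95% interval -0.428 to 14.3) that did not pass (adjusted p = 0.116). Thus 3 of 4 CpGs rose, where 22.0% of the 50 CpGs were called higher and 36.0% in either direction. By the exact permutation test of 6 run means per group CpG 3 was not called (difference 1.94, adjusted p = 0.0968). CpG 2 did pass where 1000 reads were required (7.25, adjusted p = 0.0499) and, with a difference of 14.7, once libraries over 2% non-CpG methylation over all amplicons were left out (adjusted p = 0.00812).

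With betamethasone the genotypes were farthest apart. The amplicon level had a lowest, median and highest value of 60.8%, 73.2% and 82.2% in GR mutant betamethasone larvae, against 54.0%, 60.9% and 77.1% in wild-type betamethasone larvae. The mean difference was 11.6 (SE 1.51, beta-binomial adjusted p = 4.07e-09), higher in 22 of 23, in a comparison that called 25.0% of the 8 amplicons. Without the libraries that stood apart it was 12.4 (adjusted p = 1.21e-10). With matching libraries counted once it was 11.3 (beta-binomial adjusted p = 4.22e-05).

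All 4 CpGs were higher in mutants here, where 8.00% of the 50 CpGs were called higher and 10.0% in either direction. The 8.00% called higher consisted of these same 4 CpGs. CpG 4 had a mean of 92.3% ± 7.96 in GR mutant betamethasone larvae and 74.3% ± 7.68 in wild-type betamethasone larvae (SD, n = 23 each), a difference of 18.0 (SE 2.31, beta-binomial adjusted p = 1.54e-09). At this CpG 18 of 23 mutants lay above the highest wild-type betamethasone larva. CpG 1 was higher by 10.9 (SE 1.39, adjusted p = 2.36e-09) and CpG 3 by 4.67 (SE 0.988, adjusted p = 3.50e-05).

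CpG 2 was at 0.474%, 9.27% and 41.6% (lowest, median, highest) in GR mutant betamethasone larvae, against 0.138%, 1.46% and 26.4% in wild-type betamethasone larvae. Its mean was 16.3% ± 14.6 in GR mutant betamethasone larvae and 3.39% ± 5.85 in wild-type betamethasone larvae (SD, n = 23 each), higher by 12.9 (SE 3.27, beta-binomial adjusted p = 0.00546) and in 20 of 23. By the exact permutation test of 6 run means per group the difference at CpG 2 was 13.4 and did not pass (adjusted p = 0.130).

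Because CpG 2 lay near the background in many larvae, its level was set against the non-CpG cytosines more than 30 bp from an end in the same library. CpG 2 exceeded the highest of them in 17 of 23 GR mutant betamethasone, 19 of 24 GR mutant control, 4 of 23 wild-type betamethasone and 15 of 24 wild-type control larvae. It was below 1% in 2 GR mutant betamethasone, 1 GR mutant control, 11 wild-type betamethasone and 6 wild-type control larvae. It was above 20% in 9 GR mutant betamethasone, 10 GR mutant control, 1 wild-type betamethasone and 5 wild-type control larvae. In wild type, 4 of 23 betamethasone larvae against 15 of 24 controls exceeded it (Fisher's exact test, adjusted p = 0.00537 over 4 comparisons). All 7 wild-type controls with fewer than 1000 reads, at 8.68% to 14.5%, were among these 15. The 3 GR mutant betamethasone libraries under 1000 reads, at 10.5% to 25.2%, also exceeded their background. Of the shallow wild-type betamethasone libraries, library 3 did and library 1 did not. The test was not repeated by depth. Among betamethasone larvae, 17 of 23 GR mutants against 4 of 23 wild-type larvae did (Fisher's exact test, adjusted p = 0.00110). The other comparisons did not pass (Fisher's exact test, adjusted p = 0.740 for betamethasone in GR mutants and 0.455 between the control groups). With a fixed level of 2% in place of the larva's own background, 10 of 23 wild-type betamethasone larvae against 15 of 24 controls exceeded it and the difference did not pass (Fisher's exact test, adjusted p = 0.330). Between the genotypes under betamethasone the same level gave 18 of 23 GR mutants against 10 of 23 wild-type larvae (Fisher's exact test, adjusted p = 0.132). None of these tests was repeated with matching libraries counted once, a step that left 14 GR mutant and 14 wild-type betamethasone values. The background left out the cytosine at 41099276, 29 bp from an end. CpG 2 exceeded the background but not this cytosine in wild-type control libraries 5 and 6 and GR mutant control libraries 3, 15 and 16. The same held for GR mutant betamethasone library 4. The tests were not repeated with this cytosine included.

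**Figure D5:**
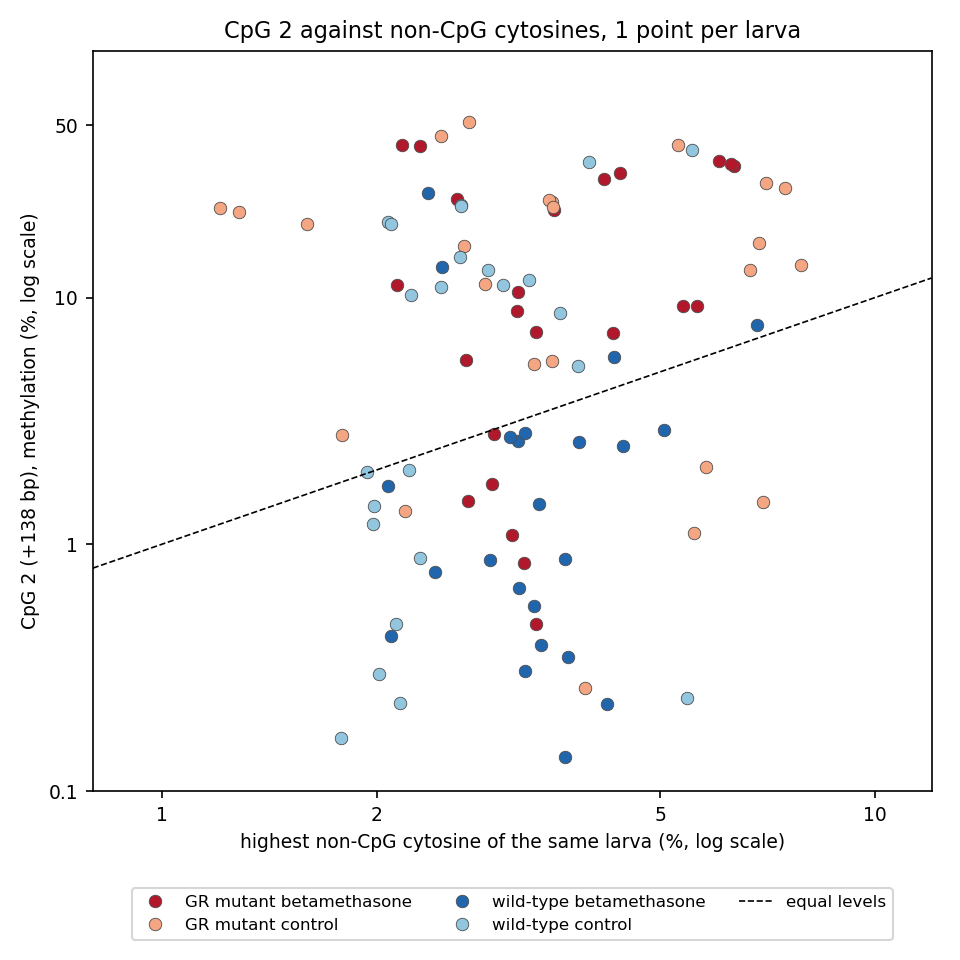
Level of CpG 2 (%) against the highest non-CpG cytosine more than 30 bp from an end in the same larva (%), both on log axes, 1 point per larva; the dashed line marks equal levels. Of the wild-type betamethasone larvae 4 of 23 lie above the line, against 15 of 24 wild-type controls, 17 of 23 GR mutant betamethasone and 19 of 24 GR mutant control larvae.

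The non-CpG level itself was 1.30% ± 0.332 (SD, n = 23) in GR mutant betamethasone, 1.09% ± 0.809 (SD, n = 24) in GR mutant control, 1.31% ± 0.384 (SD, n = 23) in wild-type betamethasone and 1.20% ± 0.471 (SD, n = 24) in wild-type control larvae. It passed in none of the 4 comparisons by a permutation test (adjusted p of at least 0.759). In wild-type controls CpG 2 was higher in larvae with a higher non-CpG level (Pearson r = 0.774, permutation test, adjusted p = 0.00064, Spearman rho = 0.724, adjusted p = 0.00104, n = 24). Without the 2 larvae farthest from the median non-CpG level r was 0.480. The amplicon level of wild-type controls was related to the non-CpG level by Spearman's coefficient (rho = 0.557, permutation test, adjusted p = 0.0206) but not by Pearson's (r = 0.437, permutation test, adjusted p = 0.105, n = 24), and r was 0.184 without those 2 larvae. Over the 8 relations computed, the 6 in the other groups passed by neither coefficient. Without the 2 farthest larvae, r at CpG 2 was -0.563 in GR mutant controls, -0.392 in wild-type betamethasone and 0.313 in GR mutant betamethasone larvae. For the amplicon level it was -0.518, -0.602 and 0.178 in the same order, and these values were not tested. None of the 8 relations was repeated with matching libraries counted once. Depth was also uneven among wild-type controls. The 7 wild-type controls with fewer than 1000 reads had CpG 2 levels of 8.68% to 14.5%, with a median of 11.2%, and the 17 deeper ones had a median of 1.97% and a mean of 10.4% ± 13.6 (SD). Some shallow libraries of different groups had like levels at CpGs 1 to 4. These were 86.8%, 11.3%, 91.5% and 86.9% in GR mutant betamethasone library 4. They were 85.7%, 13.3%, 93.3% and 85.7% in wild-type betamethasone library 3, and 85.8%, 12.9%, 92.6% and 86.6% in wild-type control library 4. Wild-type betamethasone library 1, at 77.5%, 1.72%, 89.1% and 71.5%, differed, as did GR mutant betamethasone library 5 at CpG 2 (25.2%). The part of depth and conversion in the levels was not tested further.

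The gap between CpG 2 and its 3 neighbours in the same larva did not differ detectably between groups. It was 76.7 ± 14.4 percentage points (SD, n = 23) in GR mutant betamethasone, 76.6 ± 14.0 (SD, n = 24) in GR mutant control, 78.4 ± 4.17 (SD, n = 23) in wild-type betamethasone and 78.03 ± 12.1 (SD, n = 24) in wild-type control larvae. The 4 differences ran from -1.71 to 0.386 (permutation test, adjusted p = 0.982 for each). Set against CpGs 1 and 3 alone, without the CpG near the end, they ran from -5.11 between genotypes with betamethasone (adjusted p = 0.468) to 2.91 for betamethasone in wild type (adjusted p = 0.563), and none passed by the permutation test. In percentage points, a size of group difference at CpG 2 other than that of its neighbours was thus not detected. The standard errors of 2.62 to 4.16 points limit what could be seen.

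CpG 4 lay farthest below CpGs 1 and 3 of the same larva, on average, in wild-type betamethasone larvae. CpG 4 minus the mean of CpGs 1 and 3, a measure chosen after the levels were seen, was -1.05 ± 4.82 (SD, n = 23) in GR mutant betamethasone and -0.0820 ± 4.79 (SD, n = 24) in GR mutant control larvae. It was -11.2 ± 5.87 (SD, n = 23) in wild-type betamethasone and -3.68 ± 3.00 (SD, n = 24) in wild-type control larvae. The difference was -7.56 for betamethasone in wild type (permutation test, adjusted p = 4.00e-05) and -0.964 in GR mutants (permutation test, adjusted p = 0.498). GR mutants exceeded wild type by 10.2 with betamethasone (permutation test, adjusted p = 4.00e-05, from the smallest p that 100000 permutations can give, 1e-05) and by 3.60 without (permutation test, adjusted p = 0.00397). With 1000 reads required the last of these was 2.72 and did not pass (adjusted p = 0.0564). The measure was picked and tested on the same larvae, so its p-values can be too small and are descriptive only. Whether the differences hold once libraries with like profiles are merged, or neighbouring numbers averaged, was not tested for this measure.

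Larvae with more methylation at 1 CpG did not always have more at the others. Over the 6 pairs of CpGs in 4 groups, 24 relations, Pearson's r passed in 8, Spearman's rho in 7, and both in 6 (permutation tests, Benjamini-Hochberg over the 24). In wild-type controls CpGs 1 and 4 went together (r = 0.677, permutation test, adjusted p = 0.00176, rho = 0.727, adjusted p = 0.00216, n = 24), with r = 0.694 without the 2 larvae farthest from the median. In wild-type betamethasone larvae CpGs 1 and 2 did (r = 0.677, permutation test, adjusted p = 0.00176, rho = 0.693, adjusted p = 0.00504, n = 23), with a smaller r of 0.451 without the 2 farthest.

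In GR mutant betamethasone larvae CpGs 3 and 4 went together (r = 0.831, permutation test, adjusted p = 0.00024, rho = 0.569, adjusted p = 0.0208, n = 23), with r = 0.653 without the 2 farthest larvae. CpGs 1 and 3 of these larvae did as well (r = 0.776, permutation test, adjusted p = 0.00064, rho = 0.628, adjusted p = 0.0111), with r = 0.498 without the 2 farthest. In GR mutant controls 0 of 6 pairs passed. In wild-type controls CpG 2 followed none of the high CpGs, with r of -0.246 to 0.132. The CpGs of a larva share reads, so part of any relation can be technical. The permutations also took every library as independent, although some libraries of a group had matching profiles. No relation was repeated with matching libraries counted once, so these p-values can be too small.

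The other deeply read amplicon of the chromosome, from 49743949 to 49744115, followed the same pattern only in part. Its level was 51.8% ± 33.4 (SD, n = 23) in GR mutant betamethasone, 45.9% ± 23.3 (SD, n = 24) in GR mutant control, 53.8% ± 23.2 (SD, n = 23) in wild-type betamethasone and 78.1% ± 16.5 (SD, n = 24) in wild-type control larvae. The difference between both amplicons in the same larva, 41.1 Mb minus the other, was 29.2 points in GR mutant controls and -8.83 in wild-type controls, 38.0 apart (permutation test, adjusted p = 4.00e-05). In wild type it was 8.44 with betamethasone and -8.83 without, 17.3 apart (permutation test, adjusted p = 0.0117). Both amplicons thus had a lower mean with betamethasone in wild type, and the drop was larger at the other amplicon. The genotype difference between controls was thus upward at 41.1 Mb and downward at the other amplicon. The change of this within-larva difference was -7.21 points for betamethasone in GR mutants (permutation test, adjusted p = 0.402) and 13.6 between genotypes under betamethasone (permutation test, adjusted p = 0.174), and neither passed.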

How the data were processed

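Heads of 96 zebrafish larvae in 4 groups were assayed by bisulfite PCR, with 40 cycles in the first PCR and 150 bp read pairs, per the labels' protocols. BS-Seeker2, cutadapt, FastQC and build GRCz10 are named in the submitters' processing notes, without versions or roles. For each cytosine the authors deposited a methylation fraction and the counts of methylated and of total reads. Both were checked against each other and differed beyond rounding at 0 cytosines, and the deposited counts were used. No cytosine had more than 8088 reads, and most libraries end close to that value at this amplicon, so its original depth is not known.

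The 4 CpGs, all of which are named, the comparisons and the alternatives were chosen with earlier results of these data known. Each library was 1 replicate. The labels name no clutch, so p-values cover the spread among these libraries and nothing else. A level was methylated over all reads, with 30 reads required. Groups were compared by a two-sided beta-binomial likelihood ratio test, adjusted by Benjamini-Hochberg over 50 CpGs or 8 amplicons. The test of 2 groups was also run on simulated independent larvae drawn from the same model with a fixed spread. Such a run cannot show its error rates where libraries match or the spread is wider, and the interaction was not simulated. Amplicon levels summed the reads of all CpGs. Differences are of equally weighted means, with the SE from both groups' variances and 95% intervals from a normal approximation. Counts of larvae above or below are relative to the other group's median. Within-larva values used two-sided permutation tests with 100000 resamples, and counts of larvae Fisher's exact test, both adjusted over 4 comparisons. The work used Python 3.11.15 with scipy 1.17.1, pandas 2.3.3, matplotlib 3.10.9 and numpy 2.4.6.

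Alternatives were minimums of 10, 100 or 1000 reads, other tests, CpGs near an end left out, a block for the library number, libraries over 2% non-CpG methylation over all amplicons left out, matching libraries counted once and means of runs of 4 numbers. The correction for the larva's non-CpG level, the removal of 4 libraries whose profiles lay with another group, and the measure of CpG 4 against CpGs 1 and 3 were added after seeing the data.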

Additional observations from a re-analysis of the deposited data

Results flagged for a closer look

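The betamethasone difference at the amplicon differed between genotypes by the interaction test. It was -1.27 percentage points in GR mutant and -7.07 in wild-type larvae, 5.80 apart (SE 1.93, beta-binomial test, adjusted p = 0.0205, n = 94). By CpG, the mutant difference was higher than that of wild type by 4.21 at CpG 1, 5.96 at CpG 2, 2.73 at CpG 3 and 10.1 at CpG 4, and none of these passed over the 50 CpGs. With 1000 reads required, the interaction was 6.79 (adjusted p = 0.00886), and 17 wild-type control libraries remained. The amplicon call was not stable, however. It no longer passed when CpG 4 was dropped (4.37), when matching libraries were merged (5.95) or when runs of 4 numbers were averaged (5.88). Nor did it pass when the limit of 2% on the non-CpG level was applied, where the interaction fell to 3.45.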

How the results depend on the processing

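Over 14 settings each, the betamethasone difference in wild type at the amplicon ran from -7.60 to -5.39, the genotype difference from 5.14 to 7.63 in controls and from 9.51 to 12.9 with betamethasone, all past the threshold, and the betamethasone difference in GR mutants from -1.94 to -0.608, none past it. The minimums of 10 and 100 reads kept the same larvae here as the main setting, so they could not change these differences. The interaction ran from 3.45 to 6.79. It was lost without CpGs within 30 bp of an end (4.37), without libraries above 2% non-CpG methylation (3.45), with matching libraries counted once (5.95) and with run means (5.88, adjusted p = 0.150). The limit of 2%, on the non-CpG level over all 8 amplicons and not that of this amplicon, left out 1 GR mutant betamethasone, 5 GR mutant control, 2 wild-type betamethasone and as many as 10 wild-type control libraries, and counting matches once left 14 GR mutant betamethasone, 20 GR mutant control, 14 wild-type betamethasone and 18 wild-type control values. The number of CpGs called was 0 in wild type with run means, and 1 for the interaction, CpG 4, at 1000 reads, with corrected levels, by the permutation test and with the replicate block. The excess at CpG 4 between the control groups was 2.72 at 1000 reads. With a fixed level of 2%, the share of larvae exceeding it at CpG 2 differed by -19.0 percentage points for betamethasone in wild type and by 34.8 between genotypes with betamethasone, neither past the threshold, while at 5% both passed. Signs turned at values near 0: the gap was -0.370 for betamethasone in GR mutants without the libraries that stood apart and -0.288 in wild type at 1000 reads, and the non-CpG difference between genotypes with betamethasone was 0.0287 over all non-CpG cytosines. At CpG 2 the betamethasone difference in GR mutants was 1.45 with matches counted once, and the interaction was -2.68 without libraries above 2% non-CpG methylation. The genotype difference in controls at CpG 3 was lost by the quasi-binomial test (1.56, adjusted p = 0.102). The cause of these changes was not tested.

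The same library numbers occur in each group, but not every same-numbered pair deviated together, so the numbers were not taken as pairs. Between betamethasone and control the correlation over the CpGs was over 0.1 in 15 of 24 GR mutant pairs (median 0.220) and 12 of 23 wild-type pairs (median 0.101), and across genotypes the medians ran from -0.196 to -0.0290. With a replicate block the amplicon differences were -7.22 for betamethasone in wild type, -1.38 in GR mutants, 5.82 between genotypes in controls and 11.6 with betamethasone, and the interaction was 6.13, each on the same side of the threshold. CpG 2 passed under the block for betamethasone in wild type (-7.76, adjusted p = 0.0195).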
